A study of Mus musculus with 6 samples.

Results

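The vacuolar proton pump, or V-ATPase, is described here through 10 genes of the 22063 in the deposited mouse table: Atp6v1a, Atp6v1b2, Atp6v1c1, Atp6v1e1 and Atp6v1h of the V1 sector, Atp6v0a1, Atp6v0c, Atp6v0d1 and Atp6v0d2 of the V0 sector, and the accessory gene Atp6ap1. They were taken by symbol, each symbol stood on a single row, and all 10 had enough reads to be tested. RNA sequencing set 3 samples of CAR-Trem2-Ms against 3 of CAR-Ms in a study of scar management, whose stated question is which transcripts differ between them. All 6 are macrophages grown for 7 days in complete DMEM with the macrophage growth factor M-CSF (20 ng/mL) and given a lentivirus to make them CAR-Ms, cells with an engineered receptor (CAR) for a target of choice. CAR-Trem2-Ms carry the genotype label TERM2+, spelled so, and their own treatment label adds VD3 (1 µM, 24 h) and flow sorting. CAR-Ms carry the genotype label WT and a treatment label with the lentivirus alone. A treatment protocol given for every sample names VD3 as well, which leaves it unclear whether CAR-Ms were given it too. The Trem2 genotype, the sort and possibly VD3 cannot be told apart in this comparison. The sources used here name neither the receptor's target nor the animals or cultures behind the replicates, so the spread that p-values rest on here may be only technical.

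The V-ATPase is a rotary motor that pumps protons into lysosomes, endosomes and, in osteoclasts, the space above bone. Its V1 sector in the cytosol burns ATP and turns a central stalk, and its V0 sector in the membrane carries the protons. V1 comes off and rejoins V0 as cells change their nutrient state, and the acid it makes is what lets macrophage lysosomes digest engulfed material. Several subunits exist as alternative isoforms encoded by different genes, which sends the pump to different membranes.

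Total counts were 9804959 to 12558021 reads in CAR-Trem2-Ms and 14204468 to 15913100 in CAR-Ms. Genes of the mitochondrial genome took 13.4% to 13.8% of counts in CAR-Trem2-Ms and 4.6% to 4.7% in CAR-Ms. Trem2 itself, the receptor behind the label, read 196.0, 195.1 and 182.5 CPM (counts scaled to library size) in CAR-Trem2-Ms and 78.7, 74.1 and 77.0 CPM in CAR-Ms. The summed TPM (transcript abundance scaled for length and library) of 9 macrophage markers was 3703 to 3763 in CAR-Trem2-Ms and 4731 to 4869 in CAR-Ms. Mertk among them had at most 3 reads per sample. Of 8 tested macrophage markers, 6 rose and 2 fell on counts, where 40.9% and 40.1% of all tested genes did. On log2(TPM + 1) 2 rose and 4 fell, against 17.5% and 64.2% of all genes. After a GC and length correction 5 rose and 3 fell, against 4184 and 4882 of 11382 genes. Of 9 osteoclast markers, summed at 32.8 to 39.0 TPM in CAR-Trem2-Ms and 38.8 to 45.3 in CAR-Ms, 4 of 5 tested rose on counts, where 40.9% of all tested genes rose, 0 rose and 2 fell on log2(TPM + 1), and 2 rose and 1 fell after a GC and length correction. Among them Calcr had at most 4 reads per sample. T cell markers (5 genes) summed to 3.97 to 6.0 TPM in CAR-Trem2-Ms and 0.68 to 1.68 in CAR-Ms, neutrophil markers (7 genes) to 1.78 to 4.54 and 16.1 to 34.5, and B cell markers (3 genes) to 1.88 to 2.69 and 6.92 to 11.0. Dendritic cell markers (6 genes) stood at 1.24 to 1.33 TPM in CAR-Trem2-Ms and 1.25 to 1.44 in CAR-Ms, fibroblast markers (6 genes) at 0.79 to 1.10 and 0.72 to 1.22. Keratinocyte markers (4 genes) had 1 read in all, although the labels give the tissue as skin. The part of these other cells in the values below was not tested. In bulk RNA, fewer cells of a type and less RNA per cell cannot be told apart.

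On counts, all 5 V1 genes and Atp6v0d1 of V0 were lower in CAR-Trem2-Ms than in CAR-Ms, although the small differences of Atp6v1c1 and Atp6v0d1 changed sign under another scaling. Atp6v0c, Atp6v0a1, Atp6v0d2 and Atp6ap1 were higher on counts, although Atp6v0c and Atp6ap1 were lower in TPM, where the median of all genes was lower still. Of the 10 genes, 4 rose and 6 fell in edgeR's quasi-likelihood test on counts, at a Benjamini-Hochberg adjusted p under 0.05. That is against a background in which 81.1% of 11402 tested genes changed, 40.9% upward and 40.1% downward, so that passing the test does not set these genes apart. CPM values, scaled with the trimmed mean of M values (TMM), did not overlap between the groups for any of the 10, as for 81.8% of tested genes. The median log2 fold change, CAR-Trem2-Ms over CAR-Ms, was -0.21 for the 10 genes and 0.03 for all genes. Only Atp6v0d2 moved by at least 2-fold on this scale, as 33.0% of all tested genes did.

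Scaling matters to these directions. On log2(TPM + 1), tested with limma, the median of all genes was -0.63, against 0.03 with TMM factors on counts. There 2 of the 10 genes were higher and 8 lower, on a background of 81.6% called among 10824 genes, 17.5% higher and 64.2% lower. TPM values did not overlap between the groups for any of the 10, as for 82.8% of genes, and 4 of the 10 (Atp6v1a, Atp6v1h, Atp6v1b2 and Atp6v1e1) were lower by at least 2-fold, where 39.8% of genes moved that far. Atp6v0c and Atp6ap1, which rose on counts, fell by 0.15 each on log2(TPM + 1). With the median of all genes subtracted, they stood at 0.48 each there and at 0.53 and 0.58 on counts. Fold changes below are from counts unless TPM is named.

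**Figure D1:**
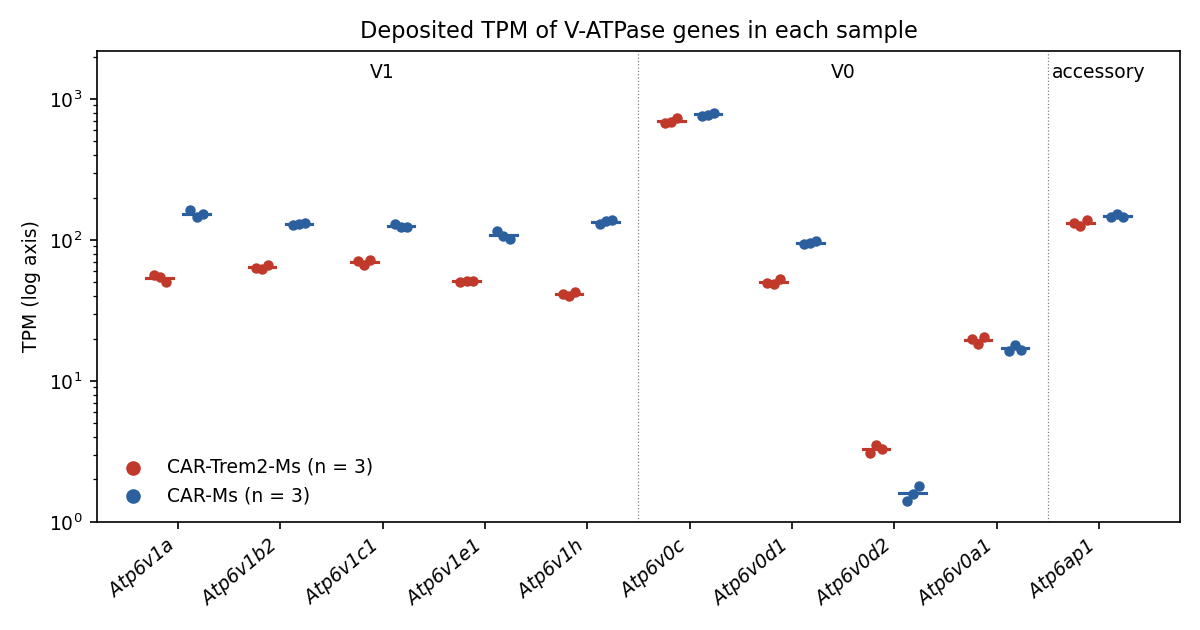
Deposited TPM (log axis) of the 10 V-ATPase genes in each of 3 CAR-Trem2-Ms samples (red, left) and 3 CAR-Ms samples (blue, right); points are samples and short lines group means. Each V1 gene shown lies lower in CAR-Trem2-Ms, with Atp6v1a at 50.3 to 56.4 TPM against 145.8 to 162.2 in CAR-Ms. Atp6v0d2 lies higher at 3.06 to 3.54 against 1.41 to 1.79. On log2(TPM + 1), 64.2% of all tested genes were lower in CAR-Trem2-Ms.

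Atp6v1a encodes the catalytic A subunit, where ATP is split (chromosome 16, 44085402 to 44139705, minus strand, GRCm38). It read 214.9, 206.3 and 201.4 CPM in CAR-Trem2-Ms and 298.9, 304.9 and 304.2 CPM in CAR-Ms. Every CAR-Trem2-Ms sample lay well under every CAR-Ms sample. The change was -0.54 ± 0.03 (log2, SE, edgeR adjusted p = 8.1e-15), which is 0.686 times the CAR-Ms level. After the GC and length correction it was smaller, at -0.28, and still called.

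Atp6v1h encodes the H subunit, which keeps V1 idle when it is free in the cytosol (chromosome 1, 5070018 to 5162529, plus strand). It read 73.3, 69.9 and 74.9 CPM in CAR-Trem2-Ms and 112.3, 111.1 and 110.9 CPM in CAR-Ms, and the groups stood far apart. It fell by 0.61 ± 0.05 on the log2 scale (SE, edgeR adjusted p = 6.7e-12), the largest fall among the 10 on counts. The GC and length correction brought this change to -0.35, still called.

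Atp6v1b2, the B subunit that alternates with A around the V1 head (chromosome 8, 69088646 to 69113711, plus strand), averaged 172.3 ± 4.63 CPM in CAR-Trem2-Ms and 216.7 ± 3.70 CPM in CAR-Ms (SD, n = 3 each). Its log2 change was -0.33 (edgeR adjusted p = 2.6e-09), and -0.48 after the GC and length correction. Atp6v1e1, part of the peripheral stalks (chromosome 6, 120794305 to 120822793, minus strand), read 54.3, 54.2 and 52.5 CPM in CAR-Trem2-Ms and 76.0, 70.6 and 65.7 CPM in CAR-Ms. The fall of 0.40 on the log2 scale (edgeR adjusted p = 3.0e-06) was clear of the CAR-Ms spread. That spread was the widest, relative to its mean, of the V1 genes there. With GC content and length corrected for, Atp6v1e1 changed by -0.53. Atp6v1c1, the C subunit that clamps V1 to the membrane sector (chromosome 15, 38661933 to 38692446, plus strand), moved least. It averaged 115.2 ± 2.15 CPM in CAR-Trem2-Ms and 132.4 ± 4.41 CPM in CAR-Ms, a log2 change of -0.20 (edgeR adjusted p = 1.7e-04). This small fall of Atp6v1c1 became a value of 0.033 with upper quartile factors and a rise of 0.17 once GC content and length were corrected for (edgeR adjusted p = 7.1e-04).

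Among V0 genes, Atp6v0c encodes the small c subunit that lines the rotating proton ring (chromosome 17, 24163866 to 24169702, minus strand). It read 624.6, 619.8 and 678.9 CPM in CAR-Trem2-Ms and 426.0, 440.5 and 444.1 CPM in CAR-Ms. CAR-Trem2-Ms were uniformly higher, with a log2 change of 0.55 ± 0.03 (SE, edgeR adjusted p = 4.6e-16). That change was 0.30 after the GC and length correction, still called. The annotation also lists the processed copies Atp6v0c-ps1 and Atp6v0c-ps2, and the sources used here do not say how reads shared with them were counted, so the level of Atp6v0c is uncertain to that extent. TPM put the same gene at 679.0, 687.2 and 736.3 in CAR-Trem2-Ms and 754.4, 776.3 and 799.6 in CAR-Ms, below in place of above. With the median of all genes subtracted, Atp6v0c stood at 0.48 on log2(TPM + 1) and at 0.53 on counts. In the authors' deposited table its log2 fold change, a ratio of TPM means, is -0.15.

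Atp6v0a1 encodes an a subunit, the fixed channel that hands protons to the ring (chromosome 11, 101009452 to 101063719, plus strand). It stood at 69.9, 67.4 and 72.5 CPM in CAR-Trem2-Ms against 34.5, 39.4 and 35.6 CPM in CAR-Ms. The 2 groups were separated by a wide gap, and the rise was 1.92-fold (log2 0.94 ± 0.07 SE, edgeR adjusted p = 9.4e-13). Once GC content and length were corrected for, Atp6v0a1 changed by 1.12 on the log2 scale. On log2(TPM + 1) its change of 0.19 was at the edge of the threshold (called, with a limma adjusted p that rounds to 0.05). It was not called without a filter on low values (limma adjusted p = 0.0656). With the median of all genes subtracted, the change was 0.82 on log2(TPM + 1) with the filter and 0.91 on counts.

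The d subunit joins the central stalk of V1 to the ring of V0 and is encoded by a widely expressed gene, Atp6v0d1 (chromosome 8, 105524465 to 105566047, minus strand), and by Atp6v0d2 (chromosome 4, 19876841 to 19922605, minus strand), known in mice for osteoclasts and macrophages and for a role in osteoclast fusion. Atp6v0d2 had 88, 79 and 92 reads in CAR-Trem2-Ms and 31, 39 and 40 reads in CAR-Ms, or 7.36, 8.39 and 7.85 CPM and 2.09, 2.35 and 2.63 CPM. It had the lowest TPM of the 10 genes in every sample. On counts it was the only one that rose by over 2-fold, 3.32-fold (log2 1.73 ± 0.24 SE, edgeR adjusted p = 2.3e-07). The log2 change was also 1.73 after the GC and length correction. Atp6v0d1 went the other way, at 70.1, 67.9 and 74.1 CPM in CAR-Trem2-Ms and 81.9, 82.1 and 84.4 CPM in CAR-Ms. Its change of -0.23 (log2, edgeR adjusted p = 5.9e-04) came to 0.007 with upper quartile factors and was not called there. It was larger, and called, after the GC and length correction, at -0.69. On log2(TPM + 1) it was called at -0.91, or -0.28 with the median of all genes subtracted.

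Atp6ap1, also known as Ac45, is a membrane glycoprotein that helps V0 assemble (X chromosome, 74297097 to 74304721, plus strand). Its level was 263.0, 246.2 and 262.7 CPM in CAR-Trem2-Ms and 163.9, 173.7 and 168.1 CPM in CAR-Ms. The rise of 0.61 ± 0.04 (log2, SE, edgeR adjusted p = 6.0e-15) set it beside Atp6v0c on counts. After the GC and length correction the rise of Atp6ap1 was 0.36, still called.

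Per transcript length, the order of levels differed between the groups. In CAR-Trem2-Ms the deposited TPM ran from Atp6v0c at 700.9 ± 31.0 through Atp6ap1 at 132.9 ± 6.59, Atp6v1c1 at 69.9 ± 2.68 and Atp6v1b2 at 64.0 ± 1.78 (SD, n = 3). Atp6v1a at 53.6 ± 3.10, Atp6v1e1 at 51.1 ± 0.52 and Atp6v0d1 at 50.3 ± 2.31 TPM overlapped with each other there, above Atp6v1h at 41.3 ± 1.09, Atp6v0a1 at 19.6 ± 1.16 and Atp6v0d2 at 3.30 ± 0.24. In CAR-Ms, Atp6v0c at 776.8 ± 22.6 TPM was followed by Atp6v1a at 153.4 ± 8.30 and Atp6ap1 at 147.6 ± 4.69, which overlapped. Next in CAR-Ms came Atp6v1h at 135.2 ± 4.85, Atp6v1b2 at 129.7 ± 2.77 and Atp6v1c1 at 125.6 ± 2.92 TPM, each overlapping its neighbour, and then Atp6v1e1 at 107.8 ± 7.19, Atp6v0d1 at 95.3 ± 2.08, Atp6v0a1 at 17.1 ± 0.93 and Atp6v0d2 at 1.597 ± 0.19. Atp6v1a and Atp6v1h thus stood among the upper V1 genes in CAR-Ms and among the lower in CAR-Trem2-Ms. Reads per TPM, a measure of the transcript length the authors' TPM used, were higher in CAR-Trem2-Ms by a factor of 1.3 for Atp6v1h and 1.19 for Atp6v1a, relative to the median gene of each library, and between 0.95 and 1.03 for the other 8 genes. These 2 genes accordingly fell further in TPM than in counts: with the median of all genes subtracted, Atp6v1h changed by -1.06 on log2(TPM + 1) and -0.64 on counts, and Atp6v1a by -0.87 and -0.57.

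Promoter sequence was taken from RefSeq (GRCm38.p6), 250 bases before to 50 after each start site, for the 6 genes with an entry: Atp6v0a1, Atp6v0c, Atp6v0d1, Atp6v1a, Atp6v1e1 and Atp6ap1. Atp6v0d2, Atp6v1b2, Atp6v1c1 and Atp6v1h were not matched. The motif CACGTG, read alike on both strands, is the core of the E-box that MiT/TFE factors, regulators of lysosomal genes, are known to bind. It occurred in 2 of the 6, Atp6v0d1 and Atp6v1a, in Atp6v0b and Atp6v0e among 13 matched genes of other V-ATPase subunits, and in 8.09% of 27025 genes. The longer TCACGTGA, which contains CACGTG, occurred in Atp6v0d1, Atp6v1a and Atp6v0e and in 1.12% of all genes. CATGTGA or its complement was found in Atp6v0c alone among the 19 V-ATPase genes and in 4.5% of all genes, and TGACTCA or its complement in 0 of the 19 and in 5.95% of all. Windows of 30 bases around CACGTG, in capitals, are shown for the 4 genes so that the flanks can be compared; each is in the sense of the gene.
Atp6v1a: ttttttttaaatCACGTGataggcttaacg
Atp6v0d1: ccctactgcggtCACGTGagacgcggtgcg
Atp6v0e: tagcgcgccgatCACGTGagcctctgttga
Atp6v0b: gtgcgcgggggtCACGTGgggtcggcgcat

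The window of Atp6v1a is chr16:44139373-44139402 (minus strand) and its motif begins at position -131 from the RefSeq start site. In Atp6v0d1 (chr8:105566050-105566079, minus strand) the motif begins at -3 and crosses the start site, and in Atp6v0e (chr17:26676387-26676416, plus strand) it begins at 4, after the start. The annotated gene spans begin further upstream than these RefSeq starts for Atp6v1a, at 44139705, and for Atp6v0e, at 26663231. Both windows lie inside those spans. Atp6v0b (chr4:117887348-117887377, minus strand) holds the motif at -36 and again at -18. The 3 genes whose motif has the flanks of TCACGTGA were lower in CAR-Trem2-Ms on counts, with log2 changes of -0.54 for Atp6v1a, -0.23 for Atp6v0d1 and -0.76 for Atp6v0e. Atp6v0b, whose motif is flanked otherwise, stood at 0.83 on the same scale. The values of these 4 genes do not all hold in every setting. Atp6v0b came to 0.007 after the GC and length correction and Atp6v0d1 to 0.007 with upper quartile factors, neither of them called. After the GC and length correction Atp6v0d1 was called, at -0.69. On counts 40.9% of all tested genes rose and 40.1% fell, so the directions of 4 genes carry little weight. A link between motif and change was not tested. These matches describe letters in these windows only.

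Among the remaining subunit genes, both sectors held genes that were higher and genes that were lower. Of 15 listed, 10 were tested: on counts 6 rose and 3 fell (median log2 change 0.44; 40.9% and 40.1% of all tested genes), and on log2(TPM + 1) 3 rose and 5 fell (median -0.27; 17.5% and 64.2% of all). In V1, Atp6v1d, one part of the central stalk, fell to 34.9 ± 1.42 CPM in CAR-Trem2-Ms, against 72.9 ± 2.86 CPM in CAR-Ms (log2 -1.06; edgeR adjusted p = 3.2e-14). Atp6v1f, its partner in that stalk, rose to 93.9 ± 4.11 CPM in CAR-Trem2-Ms, against 33.0 ± 0.73 CPM in CAR-Ms (log2 1.51; edgeR adjusted p = 1.7e-18). After the GC and length correction the changes were 0.73 for Atp6v1f and -0.88 for Atp6v1d, both still called. Atp6v1g1 and Atp6v1g2, which pair with E in the peripheral stalks, changed by 0.75 and 0.80 on counts and did not pass on log2(TPM + 1), at 0.049 and 0.020.

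In V0, Tcirg1, the a3 isoform of osteoclast and lysosome membranes, was higher in CAR-Trem2-Ms at 389.1, 418.2 and 436.8 CPM, against 190.6, 203.3 and 189.8 CPM in CAR-Ms. No CAR-Trem2-Ms sample came near a CAR-Ms sample, and the rise on counts was 2.13-fold (log2 1.09; edgeR adjusted p = 9.8e-21). The rise of Tcirg1 was smaller on log2(TPM + 1), at 0.41, and after the GC and length correction, at 0.53, and was called on both. Atp6v0a2, the a isoform of the Golgi and endosomes, changed by -0.30 and Atp6v0b, which adds a larger member to the proton ring, by 0.83; neither passed after the GC and length correction, at -0.068 and 0.007. Atp6v0e, a small hydrophobic V0 subunit, fell by 0.76, and its relative Atp6v0e2 did not pass at 21.1 ± 3.49 CPM in CAR-Trem2-Ms and 20.8 ± 2.41 CPM in CAR-Ms. The accessory gene Atp6ap2, the prorenin receptor, changed by 0.14 on counts (edgeR adjusted p = 0.00503) and by -0.55 on log2(TPM + 1). The call on counts was lost without CAR-Trem2-Ms replicate 3 (edgeR adjusted p = 0.0503) or CAR-Ms replicate 2 (edgeR adjusted p = 0.0855), and with total-count scaling, where the change was 0.012 (edgeR adjusted p = 0.806). The 5 untested genes are isoforms known from kidney, testis or other specialised tissues. Atp6v1b1 and Atp6v1g3 had no read, which allows up to 3 counts in each group, or 0.0867 CPM in CAR-Trem2-Ms and 0.0672 CPM in CAR-Ms over the summed libraries, by counting error only. Atp6v0a4, Atp6v1c2 and Atp6v1e2 had 0 to 5 reads per sample.

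**Figure D2:**
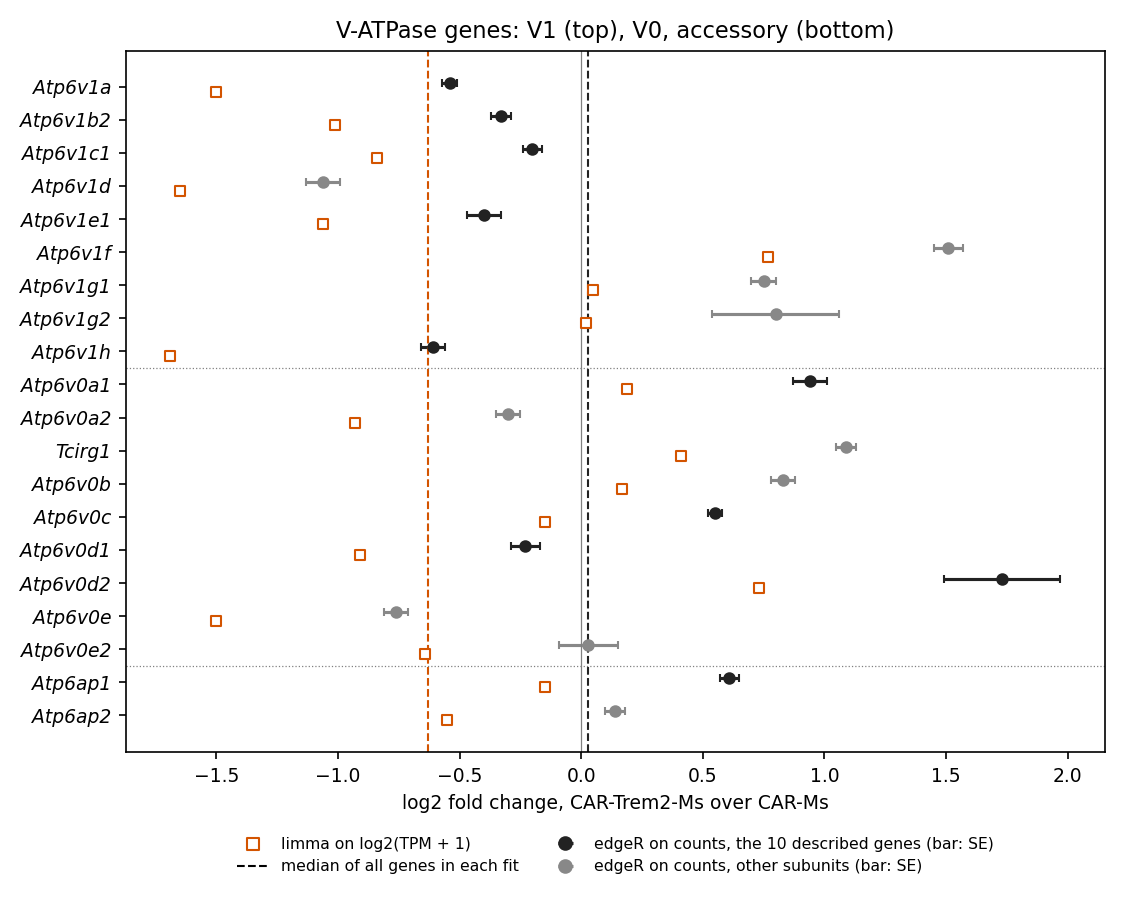
Log2 fold change, CAR-Trem2-Ms over CAR-Ms, of the 20 tested V-ATPase genes from counts (circles with SE; black for the 10 described genes, grey for other subunits) and on log2(TPM + 1) (squares); dashed lines mark the median of all genes in each fit, 0.03 and -0.63. Atp6v1d, Atp6v1h, Atp6v1a and Atp6v0e lie left of the median on both scales, and Atp6v0d2, Atp6v1f, Tcirg1 and Atp6v0a1 right of it.

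Ratios between V-ATPase transcripts within a library need no scaling between libraries. With 3 against 3 samples the exact two-sided permutation test cannot go below p = 0.10, so a full separation of the groups gives that value. The 5 V1 genes made up 27.3%, 26.7% and 25.7% of the summed TPM of the 9 V1 and V0 genes in CAR-Trem2-Ms, and 43.4%, 41.9% and 41.5% in CAR-Ms (exact p = 0.10). Most of the V0 part is Atp6v0c, at a mean of 700.9 TPM in CAR-Trem2-Ms and 776.8 in CAR-Ms. This share therefore sets the V1 genes mainly against that gene. Over all listed subunits, 13 of V1 and 10 of V0, the gap was much smaller: V1 genes made up 33.8%, 33.8% and 33.3% in CAR-Trem2-Ms and 38.4%, 37.6% and 37.3% in CAR-Ms, a difference of -4.12 percentage points (exact p = 0.10) that became -1.06 after the GC and length correction. Within V1, Atp6v1f was higher at 227.3 ± 12.1 TPM in CAR-Trem2-Ms, against 133.0 ± 1.51 TPM in CAR-Ms. Within V0, Atp6v0e was lower at 106.6 ± 6.26 TPM in CAR-Trem2-Ms, against 303.4 ± 2.79 TPM in CAR-Ms (SD, n = 3 each). For every 100 TPM of Atp6v0c there were 7.67 ± 0.76 TPM of Atp6v1a in CAR-Trem2-Ms and 19.8 ± 1.51 in CAR-Ms (SD, n = 3 each; exact permutation p = 0.10). For every 100 TPM of the stalk gene Atp6v1f there were 4.29 ± 0.38 TPM of its partner Atp6v1d in CAR-Trem2-Ms and 24.5 ± 0.85 in CAR-Ms (exact permutation p = 0.10). After the GC and length correction CAR-Trem2-Ms came to 13.2 for the first of these ratios and to 8.01 for the second. All 4 ratios in this paragraph were chosen after values were seen; the groups did not overlap in any of them in TPM, and no shift of V1 as a whole against V0 is read from the chosen genes.

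Among isoforms, the share of Atp6v0d2 was higher in CAR-Trem2-Ms and that of Atp6v0a2 lower. The shares of Tcirg1 and Atp6v0a1 depended on the correction for GC content and length. Atp6v0d2 supplied 5.83%, 6.81% and 5.89% of d subunit TPM in CAR-Trem2-Ms and 1.48%, 1.66% and 1.80% in CAR-Ms (exact permutation p = 0.10), so that Atp6v0d1 remained the main d transcript in all samples. Atp6v0a1 supplied 9.79 ± 0.69% of a subunit TPM in CAR-Trem2-Ms and 10.1 ± 0.38% in CAR-Ms, a difference within the spread between replicates (exact permutation p = 0.70). The share of Tcirg1 was 83.4 ± 0.56% in CAR-Trem2-Ms and 74.1 ± 0.87% in CAR-Ms, and that of Atp6v0a2 was 6.79 ± 0.33% and 15.8 ± 0.89% (SD, n = 3 each; exact permutation p = 0.10 for both, looked at after the data were seen). When the corrected fold changes were applied to the CAR-Ms means, CAR-Trem2-Ms shares became 74.4% for Tcirg1, 15.2% for Atp6v0a1 and 10.4% for Atp6v0a2. The differences were then 0.289 percentage points for Tcirg1, 5.09 for Atp6v0a1 and -5.35 for Atp6v0a2. Atp6v0d2 came to 8.24% in the same way.

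**Figure D3:**
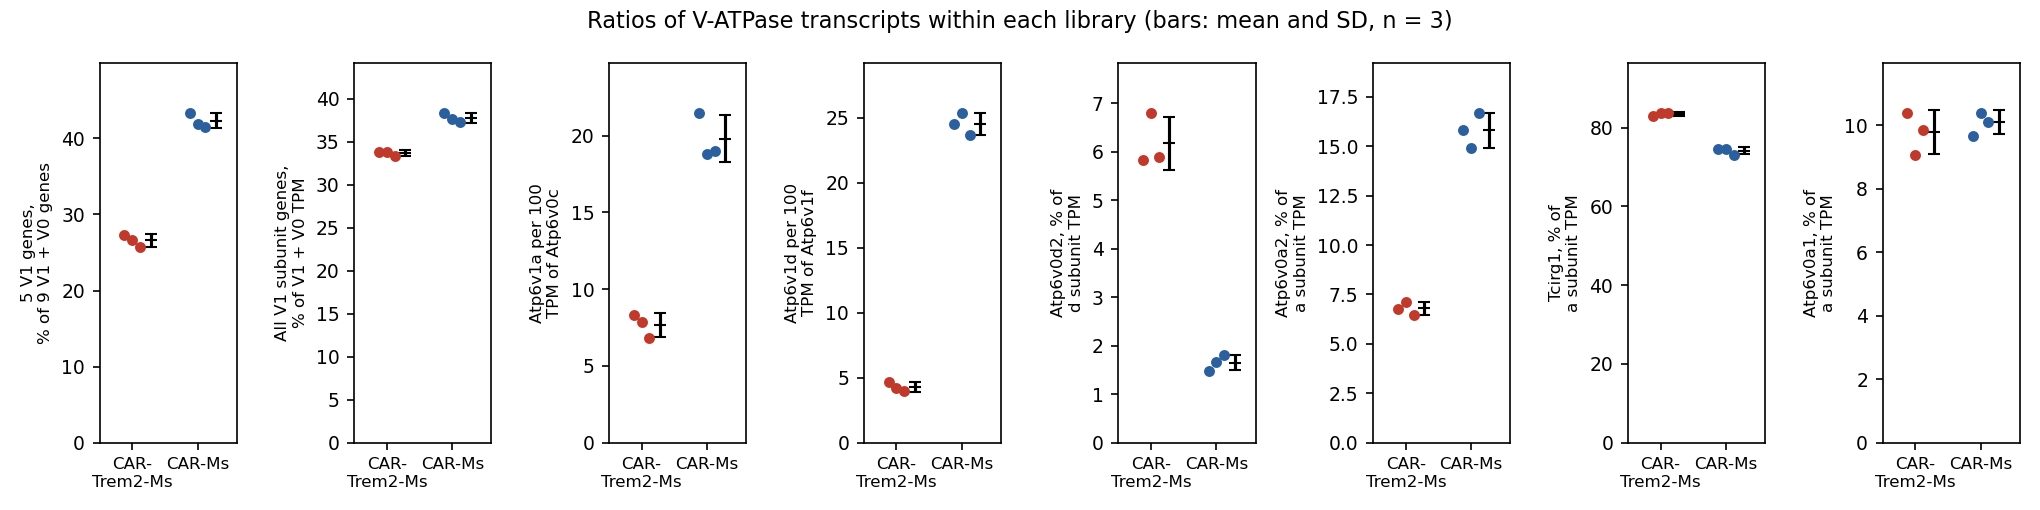
Ratios of V-ATPase transcripts within each library, in TPM, for 3 CAR-Trem2-Ms samples (red, left) and 3 CAR-Ms samples (blue, right), with the mean and SD beside the points; all axes start at 0. The groups are fully apart in each panel except the share of Atp6v0a1, at 9.07% to 10.4% in CAR-Trem2-Ms and 9.66% to 10.4% in CAR-Ms.

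Further groups of genes work around the pump on the lysosome surface, beside factors that assemble it. Ragulator and the Rag GTPases tether the V-ATPase to mTORC1, the nutrient-sensing kinase. Of 12 such genes, 11 were tested; on counts 5 rose and 6 fell (median -0.25), and on log2(TPM + 1) 3 rose and 7 fell (median -1.09). For these lists as for the others, the shares over all tested genes are 40.9% higher and 40.1% lower on counts and 17.5% and 64.2% on log2(TPM + 1). Rraga, a Rag GTPase, rose most, to 102.9 ± 1.53 CPM in CAR-Trem2-Ms, against 16.8 ± 1.03 CPM in CAR-Ms (6.10-fold; edgeR adjusted p = 3.9e-23), and Lamtor2 and Lamtor4 of Ragulator rose by 1.16 and 1.26 on counts and by 0.42 and 0.52 on log2(TPM + 1). After the GC and length correction Lamtor2 was not called, at 0.06 (edgeR adjusted p = 0.430), and Lamtor4 came to 0.37. Lamtor1 and the amino acid sensor Slc38a9 rose on counts, by 0.52 and 0.88, and stood at -0.18 and -0.10 on log2(TPM + 1). With the median of all genes subtracted, they stood at 0.45 and 0.53 on log2(TPM + 1). After the GC and length correction both were called higher, Lamtor1 at 0.32 and Slc38a9 by more than on counts. Fnip2 and Fnip1, partners of folliculin that act on the Rag GTPases, fell by 1.85 and 1.46 on the log2 scale, next to Flcn, Rragc, Lamtor3 and Lamtor5. Fnip2 read 164.0 ± 2.16 CPM in CAR-Trem2-Ms and 592.0 ± 6.53 CPM in CAR-Ms.

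Lysosomal ion channels and exchangers work beside the pump, and some of them carry the counter-ions that let it build acidity. Of 11 tested, 8 rose and 2 fell (median 0.66), against 40.9% and 40.1% of all tested genes; on log2(TPM + 1) 2 rose and 3 fell (median -0.04), against 17.5% and 64.2%. Mcoln1, the lysosomal calcium channel, rose 2.79-fold to 72.6 ± 2.44 CPM in CAR-Trem2-Ms, against 25.9 ± 0.74 CPM in CAR-Ms, and Tmem175, a lysosomal potassium and proton channel, 2.41-fold. Clcn5, an endosomal chloride and proton exchanger, fell by 1.88 on the log2 scale, to a mean of 16.8 CPM in CAR-Trem2-Ms, against 61.9 CPM in CAR-Ms, and by 1.27 after the GC and length correction.

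Of 3 tested MiT/TFE factors, Mitf changed by 0.73, and Tfe3 and Tfeb by -0.33 and -0.35. Mitf did not pass on log2(TPM + 1) at 0.052, or 0.68 with the median of all genes subtracted. After the GC and length correction Mitf was called, at 1.11. Tfeb lost its call without CAR-Trem2-Ms replicate 2 (edgeR adjusted p = 0.0686) or CAR-Ms replicate 3 (edgeR adjusted p = 0.0587), and with upper quartile factors, at -0.11 (edgeR adjusted p = 0.402), and it came to -1.10 after the GC and length correction. Tfe3 had the highest TPM of them, at 47.9 ± 8.58 in CAR-Trem2-Ms and 88.8 ± 6.70 in CAR-Ms; its change did not pass after the GC and length correction, at -0.065. Among 12 tested genes of V-ATPase assembly and regulation, 3 rose, 5 fell and 4 did not pass (median -0.07), and on log2(TPM + 1) 0 rose and 9 fell. Wdr7 and Dmxl1, which belong to the complex that rejoins V1 to V0, fell by 1.46 and 0.86 on the log2 scale. After the GC and length correction both falls were smaller and still called, with Dmxl1 at -0.29. Rogdi, of the same complex, rose by 0.64 on counts, a value that was -0.056 on log2(TPM + 1) and -0.15 after the GC and length correction. Dmxl2, on the same list, changed by -0.16 on counts and was called higher after that correction, at 0.49.

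**Figure D4:**
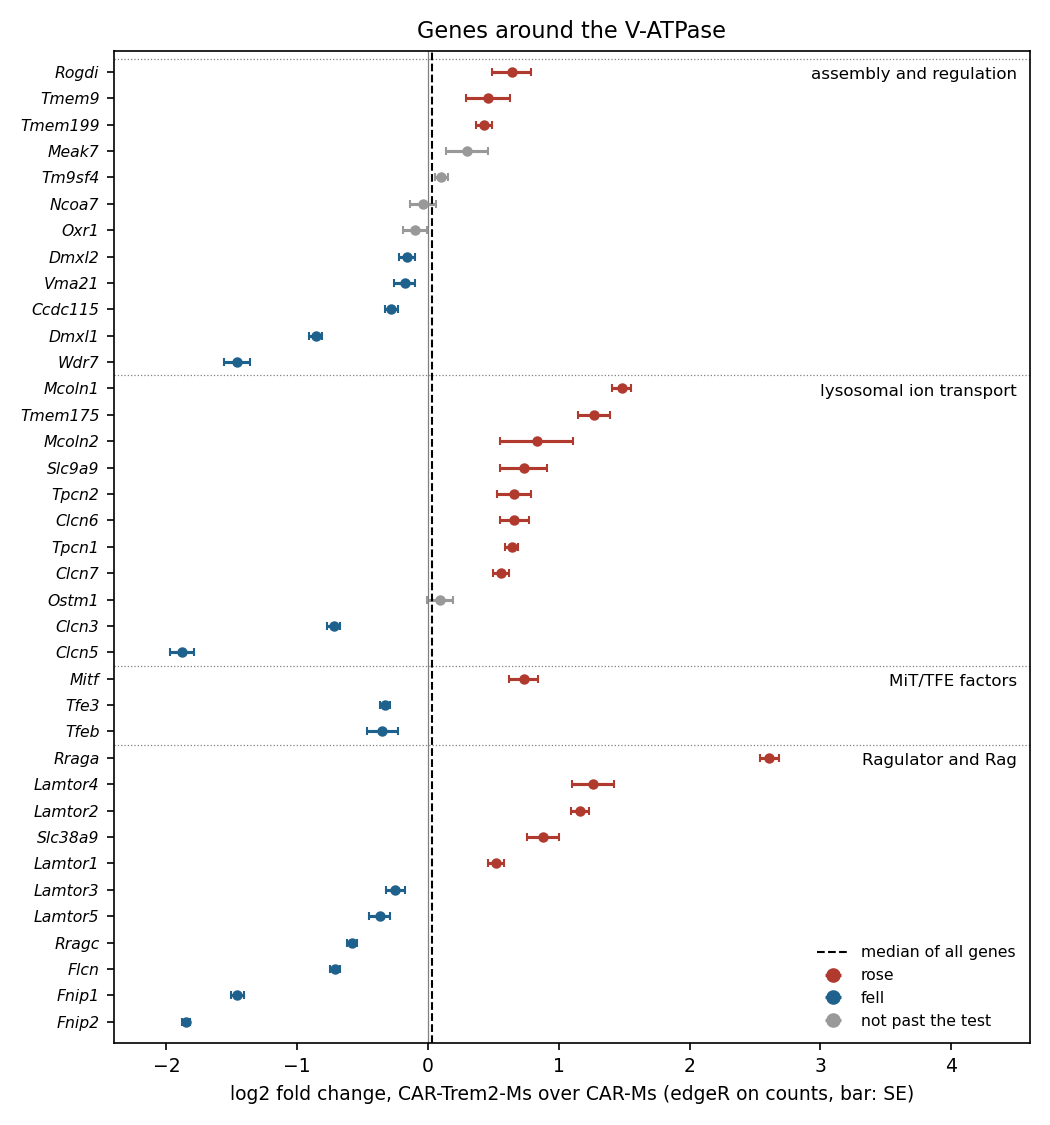
Log2 fold change with SE, CAR-Trem2-Ms over CAR-Ms, from edgeR on counts for the tested genes of assembly and regulation, lysosomal ion transport, MiT/TFE factors and Ragulator with the Rag GTPases; colours show the call at an adjusted p under 0.05. Rraga at 2.61 and Fnip2 at -1.85 mark the ends of the Ragulator and Rag group, and Mcoln1 at 1.48 and Clcn5 at -1.88 those of ion transport.

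Among the genes whose CPM profile over the 6 samples came nearest to that of Atp6v0d2 were Fam161a and Dvl1. Their Euclidean distances were 0.103 and 0.147 on centred log2(CPM + 0.5), and their log2 changes 1.69 and 1.59, against 1.73 for Atp6v0d2. The profile is mainly the step between the 2 groups, which most genes have.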

How the data were processed

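Per the file headers, the authors deposited raw read counts and TPM per gene for each sample, TPM being scaled for length within a library, with a log2 fold change that is the ratio of their TPM means and with p-values for which no tool is named. The submitters' processing notes name StringTie 1.3.1, HISAT2 (no version), Bowtie2 2.2.8, fastp 0.18.0 and the build mm10, with no role for each and no word on strand. Trizol extraction and a SMARTER mRNA-Seq library kit were used, per the labels' protocols. Slc18a1, Slc25a18 and Rgs20, on the opposite strand of Atp6v1b2, Atp6v1e1 and Atp6v1h, had at most 18 reads per sample; Atp6v0a2, Atp6v0b and Atp6v1g2 also have annotated neighbours on the opposite strand, so their counts are less certain.

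Counts were tested over the whole table with edgeR 4.0.16 (R 4.3.3, TMM factors, filterByExpr, quasi-likelihood test, Benjamini-Hochberg adjustment, called under 0.05). The procedure was run on simulated data in which few genes changed, in both directions. Most genes are called here, so that simulation does not bear on the choice of scaling. Log2(TPM + 1) was tested with limma 3.58.1 over the 10824 genes that reached a TPM of 1 in at least 3 samples. SE is the fold change over the root of F. DESeq2 1.42.0, limma-voom, other scalings, filters, thresholds, a replicate block and leaving out each sample were alternatives; the GC and length correction, with GENCODE M21 transcripts for 11382 of the tested genes, was added after seeing the data; for ratios, CAR-Ms mean TPM times the corrected fold change stood for CAR-Trem2-Ms. Replicates differed by more than sampling noise (chi-square per degree of freedom 3.21 to 3.34 in CAR-Trem2-Ms and 2.19 to 2.36 in CAR-Ms, counting genes whose summed reads in a pair reached 20). Named genes are the 10 chosen subunits, all tested other subunits, of each further list up to 3 called genes of largest change with at least 50 reads, and the 3 nearest profiles, of which 1 is not reported here; others, such as Lamtor1 and Flcn, were named after their values were seen. The genes and lists were chosen with earlier results of these data known.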

Additional observations from a re-analysis of the deposited data

How the results depend on the processing

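Of 210 values of the 10 genes under alternatives, 191 kept direction and call, 10 kept direction without the call and 9 changed sign. The counts of 4 higher and 6 lower held when any sample was left out, and 8911 to 9237 genes of the whole table were then called; other subunits gave 5 to 6 higher and 3 lower. The replicate block changed no call of the 10 genes (9188 genes called over all); same-numbered samples did not deviate together (r of -0.025, -0.060 and 0.072), so the numbers were not taken as pairs. With upper quartile factors (median of all genes 0.26) 4 of the 10 were higher and 4 lower, Atp6v0d1 at 0.007 and Atp6v1c1 at 0.033 having changed sign; over all genes 5714 were then higher and 3606 lower, against 4668 and 4577. On log2(TPM + 1) and log2(TPM + 0.1), 2 were higher and 8 lower, and 3 other subunits were higher and 5 lower; without a filter, 1 of the 10 was higher, with 3 and 5 of the others. Over all genes 1890 were higher and 6946 lower on log2(TPM + 1), and 2009 and 7319 of 16598 without a filter. In all 3 TPM fits Atp6v0c and Atp6ap1 came to -0.15, Atp6ap2 to -0.55 or -0.56, Atp6v0e2 to -0.64 or -0.67 and Rogdi to -0.056 or -0.059. Atp6v0e2, uncalled on counts, also changed sign with total-count scaling (-0.097), no filter (-0.010), DESeq2 (-0.004), and without CAR-Trem2-Ms replicate 3 (-0.12) or CAR-Ms replicate 2 (-0.076). After the GC and length correction Atp6v1c1 was 0.17, Atp6v0e2 -0.40 and Rogdi -0.15, with 5 of the 10 higher and 5 lower. Of 11382 genes in that corrected fit, 4184 were higher and 4882 lower. At a log2 change of at least 1, 1 of the 10 was higher and 0 lower in edgeR, 2 other subunits were higher and 1 lower, and 3765 genes were called in all. The cause of these shifts was not tested.

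With reads in place of TPM, which leaves length in the ratio, the differences CAR-Trem2-Ms minus CAR-Ms became 7.26 percentage points for the Atp6v0d2 share, -14.9 for Atp6v0a2, 13.7 for Tcirg1 and 1.19 for Atp6v0a1 (from -0.280), -12.1 for the V1 share over all subunits (from -4.12), and -36.8 for Atp6v1a per Atp6v0c and -183 for Atp6v1d per Atp6v1f. With GC- and length-corrected fold changes they were 6.60 for Atp6v0d2, 5.09 for Atp6v0a1, -5.35 for Atp6v0a2, 0.289 for Tcirg1, -8.38 for the V1 share of the 9 genes, -1.06 for that over all subunits, -6.56 for Atp6v1a per Atp6v0c and -16.5 for Atp6v1d per Atp6v1f. Leaving out a sample gave 4.21 to 4.70 for Atp6v0d2, -0.612 to 0.0785 for Atp6v0a1, -9.45 to -8.55 for Atp6v0a2, 8.81 to 9.64 for Tcirg1, -16.1 to -15.1 for the V1 share of the 9 genes, -4.36 to -3.8 for that over all subunits, -12.6 to -11.2 for Atp6v1a per Atp6v0c and -20.7 to -19.8 for Atp6v1d per Atp6v1f. Depth limits Atp6v0d2 most, at 31 to 92 reads per sample.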
